A study of Mus musculus with 7 samples.

Results

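The genes of the BMP and TGF-beta pathways were examined in sorted mouse mammary cells: ligands, receptors, Smads, the Id target genes, the latent TGF-beta binding proteins and secreted or membrane antagonists. Members were chosen by symbol, with earlier results of these data known, and 51 of the 17096 genes on the array were members. Of the 56 symbols looked for, Bmp3, Bmp9, Bmp11, Inhbb and Smad8 were not analysed here under those names. The arrays were Affymetrix mouse arrays, 7 in all. Adult luminal cells (2 arrays) were YFP+ cells from K8CREERT2/RosaYFP mice, in which the keratin K8 promoter drives a tamoxifen-activated Cre. Adult basal cells (2 arrays) were YFP+ cells from K5CREERT2/RosaYFP mice, in which the K5 promoter does so. Both were taken 8 weeks after tamoxifen, and their arrays are marked as a reanalysis; their tissue label reads as embryonic, against their source. Embryonic cells (3 arrays of 2000, 2000 and 813 cells) were CD49fHi Lgr5Hi mammary cells of Lgr5-IRES-GFP female embryos at embryonic day 14, each array a pool of the females of a litter. All groups thus carried a fluorescent reporter allele, and tamoxifen was given to the adult groups. The labels give no age for the adult mice and do not say whether the replicates of a lineage came from separate mice, so p-values measure the spread between these arrays, which may be technical.

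In this pathway, dimeric ligands bind pairs of type I and type II serine/threonine kinase receptors, which phosphorylate receptor-regulated Smads. BMPs act mainly through Smad1, Smad5 and Smad9, and TGF-betas and activins through Smad2 and Smad3, with Smad4 as the shared partner. Smad6, Smad7 and Bambi are induced by the pathway and restrain it, and Id genes are classical BMP targets. In the mammary gland, TGF-beta is known as a brake on ductal growth and BMPs as regulators of bud formation and of the basal layer.

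Values are log2 of the deposited probe set intensity. A gene was called changed when its Benjamini-Hochberg adjusted p over all genes was under 0.05 in limma and the adult lineages differed at least 2-fold. Standard errors and p-values drew on the spread within the luminal, basal and embryonic groups, and n counts the adult arrays compared. A level below 5.98 on the log2 scale was taken as background. A list of 104 genes expressed in other organs set it, as the 95th percentile of their 141 probe sets. The level is approximate: at the 90th percentile, 5.67, a choice added after seeing the data, bounds stated here as at least 1.02-fold for Smad6, 1.43-fold for Bambi and 3.24-fold for Ltbp2 would be 1.27, 1.78 and 4.03, and the luminal arrays of Acvrl1 and at least 1 basal array of Bmp4, Bmp8b and Tgfbi would lie above background. Of the 51 members, 35 lay above background in at least 1 adult lineage, and all 51 were tested. The median log2 intensity of the arrays ran from 5.05 to 5.08, and precision is limited by there being so few arrays. Over the table, 5.49% of genes were called.

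Adult basal cells had the higher level of most members that changed. Of 51 members 11 were called (21.6%, against 5.49% of all genes), 10 of them higher in basal cells (19.6%, against 2.63%) and 1 in luminal cells (2.87% of all genes). The 10 were Bmp7, Tgfbr3, Smad6, Smad7, Id4, Ltbp2, Ltbp4, Bambi, Fst and Fstl1, and the 1 was Ltbp1. Antagonists, latent TGF-beta binding proteins and inhibitory Smads made up 8 of the 11. The TGF-beta and activin ligands, the signalling type I and type II receptors and the receptor-regulated Smads gave 0 calls in limma. An unadjusted p under 0.05 was reached by 31.3% of all genes and 21 of the 51 members. From these classes Inhba, Acvr1, Acvrl1, Bmpr2, Tgfbr2, Smad1 and Smad2 reached it. Acvrl1, Bmpr2 and Smad2 also had a limma adjusted p under 0.05 (0.0428, 0.0356 and 0.0403). In the main fit they lacked a call only because they differed under 2-fold. With embryonic replicates 1 and 2 averaged the limma adjusted p was 0.0590 for Acvrl1 and 0.0601 for Bmpr2. With the 4 adult arrays alone it was 0.0270 for Acvrl1, 0.0414 for Bmpr2 and 0.0583 for Smad2. The median difference over the 51 members, luminal minus basal, was -0.29 on the log2 scale, against 0.02 over all genes, and 38 of 51 members had a negative difference. These cells were measured in bulk, so fewer cells of a type and less RNA per cell cannot be told apart.

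**Figure D1:**
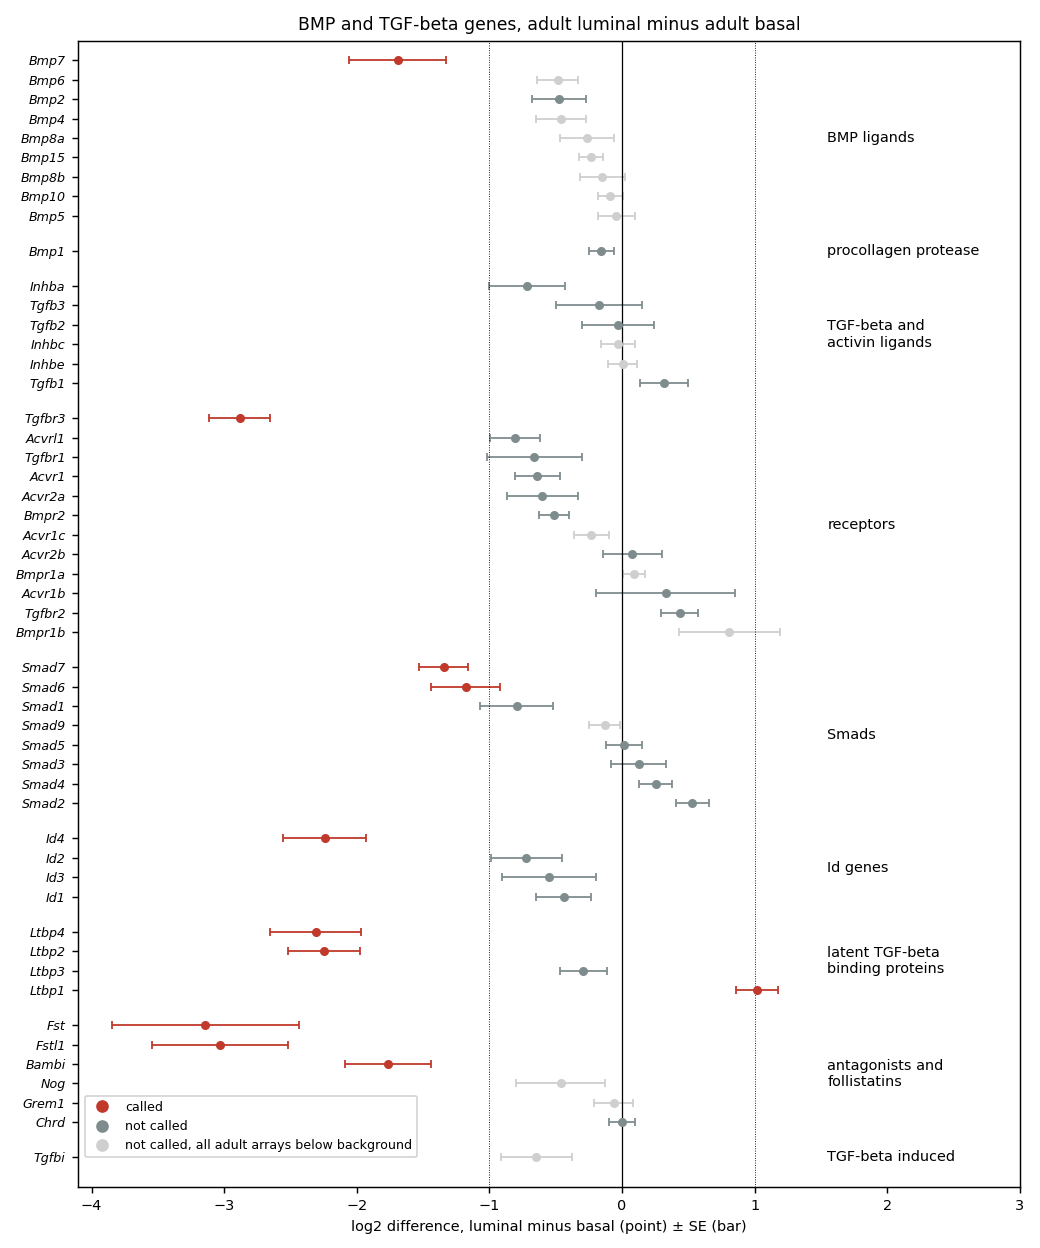
Log2 difference, luminal minus basal, of the 51 BMP and TGF-beta genes by role; points are limma estimates and bars their standard error, and dotted lines mark 2-fold. Red points, the 11 called genes, lie on the basal side except Ltbp1 at 1.02; pale grey points had every adult array below background.

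Lineage markers followed the sort labels in direction. Of 8 basal markers 7 were called, all higher in basal cells, and their summed intensity was 2040 to 2690 on the luminal arrays and 14400 to 15400 on the basal arrays. Of 10 luminal markers 6 were called, all higher in luminal cells, with sums of 11100 to 12100 and 6630 to 6870. Krt8, Krt18, Cldn4 and Epcam were not called, and Krt8 differed by 0.40 only (limma adjusted p = 0.121). Fibroblast and endothelial markers were mostly higher in basal cells, with 13 of 14 and 13 of 13 differences negative. The summed intensity of 14 fibroblast markers was 3240 to 5230 on the luminal and 8220 to 9880 on the basal arrays, and 4 of the 14 were called, all higher in basal cells (Postn, Col5a1, Col6a1 and Mfap5), while Dcn differed by 0.05. That of 13 endothelial markers was 519 to 874 and 1230 to 1960, with 0 called in limma (9 at an unadjusted p under 0.05, and 7 of the 13 at least 2-fold apart). For 12 leukocyte markers the sums were 497 to 703 and 768 to 921, with 0 called in limma (3 at an unadjusted p under 0.05), and for 3 pericyte markers 562 to 633 and 385 to 633, with 0 called in limma (2 at an unadjusted p under 0.05). No marker was listed at 0. Below background in both lineages were 4 fibroblast, 4 endothelial and 7 leukocyte markers. Among them were Pdgfra, Col1a2, the called Mfap5 and Ptprc. Replicates of a lineage differed in these markers. From luminal replicate 1 to 2 the fibroblast markers differed by a median of 0.43, with a range from -0.75 (Dcn) to 1.92 (Col3a1), and the endothelial markers by a median of 0.64. Between basal replicates 1 and 2 the medians were 0.32 for fibroblast, 0.73 for endothelial and 0.62 for pericyte markers, higher in replicate 2. The part of stromal RNA in the results was not tested.

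Among the BMP ligands, Bmp7 changed and was higher in basal cells. Bmp7 encodes a BMP that signals through Smad1, Smad5 and Smad9. Its log2 intensity was 5.99 and 6.19 on the luminal arrays and 7.71 and 7.86 on the basal arrays. The basal arrays were both high and close to each other, and the luminal arrays lay just above background. The difference, luminal minus basal, was -1.69 ± 0.37 (SE, n = 2 and 2 arrays, limma adjusted p = 0.0358), or 3.23-fold. In the fit of the 4 adult arrays alone the SE was 0.14. Its other probe sets gave measured differences of -1.65 and -1.36, with luminal means of 5.27 and 5.72, below background. Bmp2, a ligand of bone and bud development, read 6.68 and 6.41 in luminal and 6.86 and 7.18 in basal cells. Its lineages did not overlap, but the difference of -0.47 did not pass (95% interval -0.96 to 0.01, limma adjusted p = 0.169). Bmp8b lay below background on all 4 adult arrays (-0.15). The other 6 BMP ligands, Bmp4, Bmp5, Bmp6, Bmp8a, Bmp10 and Bmp15, were below background on every adult array, so their differences of -0.48 to -0.04 do not show equal expression. Bmp1, which shares the BMP name but encodes a procollagen protease, read 9.63 and 9.75 in luminal and 9.77 and 9.92 in basal cells (-0.16, interval -0.39 to 0.07).

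None of the 6 TGF-beta and activin ligand genes was called in limma (1 of 6, Inhba, at an unadjusted p under 0.05). Inhba, which encodes the activin A subunit, read 7.30 and 7.27 on the luminal arrays and 8.14 and 7.87 on the basal arrays. The basal arrays were the higher in each case, yet the difference of -0.72 ± 0.29 missed the threshold (limma adjusted p = 0.151). Its interval ran from -1.41 to -0.02, and in the fit of the 4 adult arrays alone its adjusted p was 0.0255 (limma, range 0.0181 to 0.429 over its alternatives), still under 2-fold. Tgfb2 read 7.53 and 7.28 in luminal and 7.39 and 7.49 in basal cells, overlapping values with a difference of -0.03 (interval -0.69 to 0.63). The remaining ligands were Tgfb1 (0.32, interval -0.12 to 0.75) and Tgfb3 (-0.17, interval -0.95 to 0.61), with Inhbc and Inhbe below background on every adult array. The intervals of Inhba, Tgfb1, Tgfb2 and Tgfb3 leave room for differences of over 1.5-fold.

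Of 12 receptor genes, Tgfbr3 was called. Tgfbr3 encodes betaglycan, a co-receptor that presents TGF-beta2 and inhibins and has no kinase domain. It read 7.38 and 7.50 on the luminal arrays and 10.22 and 10.43 on the basal arrays. The arrays of each lineage lay within 0.22 of each other, and the gap between lineages was many times that. Basal cells were 7.38-fold higher, by -2.88 ± 0.23 on the log2 scale (SE, n = 2 and 2 arrays, limma adjusted p = 0.00534). A further probe set gave -2.33. Among the 11 called members it held its call most often when an adult array was left out, in 3 of 4 cases; without luminal replicate 1 its adjusted p in limma was 0.0590, with a range of 0.000844 to 0.0590 over its alternatives. Replicate 2 of Tgfbr3 was above replicate 1 by 0.12 in luminal and 0.22 in basal cells.

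A further 2 receptor genes passed the adjusted p but differed under 2-fold, both higher in basal cells. With no fold minimum 14 of 51 members passed, against 13.0% of all genes. Bmpr2, the type II receptor for BMPs, read 8.48 and 8.41 in luminal and 8.92 and 9.0003 in basal cells, so that the difference, -0.51 ± 0.11 (limma adjusted p = 0.0356), was small. Its other probe set gave -0.71. Acvrl1, known as ALK1 and best known as an endothelial receptor, read 5.94 and 5.84 in luminal and 6.51 and 6.88 in basal cells. The luminal arrays were below background, so basal cells were at least 1.64-fold higher, with a measured difference of -0.81 ± 0.19 (limma adjusted p = 0.0428). The 13 endothelial markers had a median difference of -1.25, on the same side. From replicate 1 to 2 Acvrl1 differed by -0.10 in luminal and 0.38 in basal cells, beside endothelial medians of 0.64 and 0.73. The part of these markers in the Acvrl1 result was not tested.

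The kinase receptors for TGF-beta pointed to opposite sides and neither passed. Tgfbr2, the type II receptor, read 8.51 and 8.25 in luminal and 8.02 and 7.88 in basal cells (0.43 ± 0.14, limma adjusted p = 0.0862). A further probe set above background gave -0.06, so its probe sets disagreed. Tgfbr1, the type I receptor, had a difference of -0.66, with an interval of -1.53 to 0.21. Acvr1, a type I receptor for BMPs and activins also called ALK2, read 8.96 and 8.76 in luminal and 9.62 and 9.38 in basal cells. The basal arrays were higher by -0.64 ± 0.17, just short of the adjusted threshold (limma adjusted p = 0.0577). Its 3 probe sets gave -0.64, -0.65 and -0.68, and in the fit of the 4 adult arrays alone its adjusted p was 0.0396 (limma, range 0.0174 to 0.307 over its alternatives), still under 2-fold. The other receptors were not called either: Acvr2a at -0.60, Acvr2b at 0.08 and Acvr1b at 0.33, with Bmpr1a (0.09), Bmpr1b (0.81) and Acvr1c (-0.23) below background on every adult array. In the fit of the 4 adult arrays alone Acvr2a had a limma adjusted p of 0.0448, still under 2-fold. The probe sets of Acvr2b and Acvr1b differed in sign as well, and in 16 of the 19 members with at least 2 probe sets above background the signs were the same.

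Inhibitory Smads were called, with Smad6 the less stable call, and the signal-carrying Smads were not called. Smad7, a feedback inhibitor of both branches, read 6.20 and 6.33 on the luminal arrays and 7.56 and 7.65 on the basal arrays. Replicates lay close together, and the difference was -1.34 ± 0.18 (SE, n = 2 and 2 arrays, limma adjusted p = 0.0144), or 2.54-fold. Smad6, the inhibitor that acts mainly on the BMP branch, read 4.67 and 5.005 in luminal and 5.69 and 6.34 in basal cells. Its luminal arrays and basal replicate 1 were below background, so the bound was 1.02-fold only. The measured difference was -1.18 ± 0.26 (limma adjusted p = 0.0379), and without basal replicate 2 it was -0.85. Smad6 kept its call in 6 of its 14 alternatives, some of which left 1 array in a lineage. Among the others, its call was lost with array weights and with embryonic replicates 1 and 2 averaged. Smad6 was higher in replicate 2 by 0.34 in luminal and 0.66 in basal cells, beside endothelial medians of 0.64 and 0.73, whose part was not tested.

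Smad2, the mediator of TGF-beta and activin signals, was the 1 member beside Ltbp1 with an adjusted p under 0.05 on the luminal side. It read 8.76 and 8.53 in luminal and 8.03 and 8.20 in basal cells, a 1.45-fold difference (0.53 ± 0.12, limma adjusted p = 0.0403) that a second probe set gave as 0.58. Smad3, its partner in that branch, read 10.12 and 9.81 in luminal and 9.90 and 9.77 in basal cells, with overlap and a difference of 0.13 (interval -0.38 to 0.63). Smad4, the common partner, read 9.17 and 8.93 against 8.80 and 8.80 (0.25, interval -0.04 to 0.55). Of the BMP-branch Smads, Smad1 had a difference of -0.79 (interval -1.46 to -0.13, limma adjusted p = 0.107) and -0.78 on its second probe set. Smad5 had one of 0.02 (interval -0.31 to 0.35), and Smad9 was below background on every adult array. In the fit of the 4 adult arrays alone the limma adjusted p was 0.0334 for Smad1, still under 2-fold, and 0.0583 for Smad2.

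The Id genes encode helix-loop-helix proteins that bind and block basic helix-loop-helix transcription factors, and all 4 read higher on both basal arrays than on both luminal arrays. Over all genes 25.3% had both basal arrays above both luminal arrays; of the 51 members 30 did. Both luminal arrays were above both basal arrays for 8 of 51 members, against 33.9% of all genes. Of the 4, Id4 was called. Id4 read 8.60 and 9.43 on the luminal arrays and 11.38 and 11.13 on the basal arrays. Basal cells were 4.73-fold higher (-2.24 ± 0.31, SE, n = 2 and 2 arrays, limma adjusted p = 0.0151). Of its 3 probe sets, the brightest gave this smallest difference, and the others gave -3.55 and -3.71 with luminal means of 4.15 and 4.97, below background. Luminal replicate 2 was 0.82 above replicate 1. The difference was -2.65 without luminal replicate 2 and -1.83 without luminal replicate 1, where the call was lost (limma adjusted p = 0.0869, range 0.00198 to 0.0907 over its alternatives).

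Id1, Id2 and Id3, which are broadly induced by BMPs, did not pass. Id2 read 7.73 and 8.45 in luminal and 8.54 and 9.08 in basal cells (-0.72 ± 0.27, interval -1.37 to -0.07, limma adjusted p = 0.127). Id3 read 8.14 and 8.29 against 8.44 and 9.08 (-0.55 ± 0.35, limma adjusted p = 0.343). For Id2 the spread within a lineage was about as large as the gap between them. Id1 had a difference of -0.44 with an interval of -0.94 to 0.06. Whether Id4 differed from Id1, Id2 or Id3 in its response was not tested.

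The sequences upstream of Id4, of its relatives Id2 and Id3 and of Smad6 are shown. These are known as BMP-responsive genes, Id4 and Smad6 were both called, and their windows were available. No window was available here for Id1, Smad7, Bambi, Bmp7, Fst or Tgfbr3. Each window is the 250 bases before the RefSeq start site in GRCm38.p6, written 5′ to 3′ on the gene's strand. Capitals mark CAGAC, a Smad box, or GGCGCC, a GC-rich element bound by BMP Smads, on either strand; GGCGCC reads the same on both strands, and the 2 motifs do not overlap here.
Id4 upstream window, chr13:48260866-48261115, plus strand: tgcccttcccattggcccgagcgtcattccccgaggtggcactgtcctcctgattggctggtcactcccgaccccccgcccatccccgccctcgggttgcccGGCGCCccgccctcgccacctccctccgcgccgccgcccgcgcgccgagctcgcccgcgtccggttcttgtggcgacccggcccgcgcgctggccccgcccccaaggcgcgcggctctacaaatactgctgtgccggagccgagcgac
Id2 upstream window, chr12:25096093-25096342, minus strand: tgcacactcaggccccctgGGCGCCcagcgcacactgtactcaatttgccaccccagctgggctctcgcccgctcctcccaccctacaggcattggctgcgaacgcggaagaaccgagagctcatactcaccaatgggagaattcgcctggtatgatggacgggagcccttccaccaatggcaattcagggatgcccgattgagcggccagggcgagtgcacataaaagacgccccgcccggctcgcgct
Id3 upstream window, chr4:136143572-136143821, plus strand: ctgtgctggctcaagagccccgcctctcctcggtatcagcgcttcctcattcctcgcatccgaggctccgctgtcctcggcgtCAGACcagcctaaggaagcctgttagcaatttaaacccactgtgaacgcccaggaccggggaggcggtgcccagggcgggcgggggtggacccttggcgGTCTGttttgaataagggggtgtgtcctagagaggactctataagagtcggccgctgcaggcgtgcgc
Smad6 upstream window, chr9:64022060-64022309, minus strand: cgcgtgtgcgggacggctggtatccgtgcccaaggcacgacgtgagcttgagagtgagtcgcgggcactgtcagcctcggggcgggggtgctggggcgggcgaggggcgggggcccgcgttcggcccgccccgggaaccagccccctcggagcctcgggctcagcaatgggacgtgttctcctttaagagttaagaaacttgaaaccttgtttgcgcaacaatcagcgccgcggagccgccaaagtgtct
The Id4 window held GGCGCC once, beginning 148 bases before the start, and that of Id2 held it once at 231 bases. The Id3 window held CAGAC on the plus strand at 167 bases and its complement GTCTG at 68 bases. The Smad6 window held neither string. Of 32817 windows of this length, 42.2% held CAGAC and 9.59% held GGCGCC. The 38 members in the RefSeq table had 47 windows, of which 21 held CAGAC (44.7%) and 12 held GGCGCC (25.5%). Of the 5 basal-high members with a window, 1 held CAGAC and 2 held GGCGCC. A match here describes letters and not a bound site.

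Latent TGF-beta binding proteins gave calls in both directions. These matrix proteins resemble fibrillins, and all but Ltbp2 are known to bind latent TGF-beta. Ltbp4 read 7.47 and 8.12 on the luminal arrays and 9.95 and 10.26 on the basal arrays, 4.96-fold higher in basal cells (-2.31 ± 0.34, SE, n = 2 and 2 arrays, limma adjusted p = 0.0166). Ltbp2 read 5.53 and 5.33 in luminal and 7.69 and 7.67 in basal cells. The luminal arrays were below background, so basal cells were at least 3.24-fold higher (measured difference -2.25 ± 0.27, limma adjusted p = 0.0115). Luminal replicate 2 differed from replicate 1 by 0.65 for Ltbp4 and by -0.20 for Ltbp2.

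Ltbp1, which tethers latent TGF-beta to the matrix, went the other way. It read 8.35 and 8.19 on the luminal arrays and 7.02 and 7.49 on the basal arrays. Both luminal arrays were higher, and the difference, 1.02 ± 0.16 (SE, n = 2 and 2 arrays, limma adjusted p = 0.0179), was 2.03-fold, close to the fold minimum. It fell under 2-fold without luminal replicate 1 (0.94), without basal replicate 1 (0.79) and with quantile normalization (0.93). Its 2 other probe sets were below background (-0.12 and -0.09), and the mean of all 3 gave 0.27. Ltbp3, which also tethers latent TGF-beta, read 9.66 and 9.65 against 9.88 and 10.01 (-0.29, interval -0.72 to 0.13).

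Secreted and membrane antagonists held the 2 largest differences among the members, those of Fst and Fstl1. Fst encodes follistatin, which binds activins and some BMPs. It read 7.17 and 7.21 on the luminal arrays and 10.55 and 10.12 on the basal arrays. Basal cells were 8.83-fold higher, by -3.14 ± 0.70 on the log2 scale (SE, n = 2 and 2 arrays, limma adjusted p = 0.0385). A second probe set gave a measured difference of -3.93, with a luminal mean of 5.17, below background. The standard error drew on the embryonic arrays, where Fst read 7.66, 9.27 and 6.87; in the fit of the 4 adult arrays alone it was 0.17, with an adjusted p of 0.00226 (limma, range 0.00226 to 0.230 over the alternatives, the highest with array weights). The luminal replicates of Fst differed by 0.04, and basal replicate 2 differed from replicate 1 by -0.43.

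Fstl1 encodes a secreted follistatin-like glycoprotein that is abundant in mesenchymal cells. It read 6.54 and 8.20 on the luminal arrays and 10.18 and 10.62 on the basal arrays. The lineages did not overlap, but luminal replicates differed by 1.66, the widest gap among the 11 called members. The difference was -3.03 ± 0.51 (SE, n = 2 and 2 arrays, limma adjusted p = 0.0211), or 8.17-fold. It was 14.5-fold without luminal replicate 2 and 4.60-fold without luminal replicate 1. Between the same luminal arrays the 14 fibroblast markers ran from -0.75 to 1.92, with a median of 0.43, and their part in the Fstl1 value was not tested.

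Bambi encodes a kinase-lacking pseudoreceptor that blocks type I receptor signalling. It read 4.76 and 4.71 on the luminal arrays, below background, and 6.01 and 6.99 on the basal arrays. Basal cells were at least 1.43-fold higher, and the measured difference was -1.77 ± 0.33 (SE, n = 2 and 2 arrays, limma adjusted p = 0.0250). Its basal replicates were far apart, and the fold was 4.78 without basal replicate 1 and 2.42 without basal replicate 2. Bambi was 0.98 higher in basal replicate 2 than in replicate 1. There the endothelial markers had a median difference of 0.73 and the 3 pericyte markers of 0.62. From luminal replicate 1 to 2 Bambi, below background, differed by -0.05. Between those luminal arrays the endothelial markers had a median difference of 0.64 and the pericyte markers of 0.08. The part of these markers in the Bambi result was not tested. Chrd, the gene of the BMP-binding protein chordin, had means of 6.09 and 6.09 (interval -0.24 to 0.24), close to background. Grem1 and Nog, which encode gremlin and noggin, were below background on every adult array. Tgfbi, which encodes a TGF-beta-induced matrix protein, was below background as well, at 4.59 and 5.08 in luminal and 5.13 and 5.83 in basal cells (-0.65, limma adjusted p = 0.162).

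**Figure D2:**
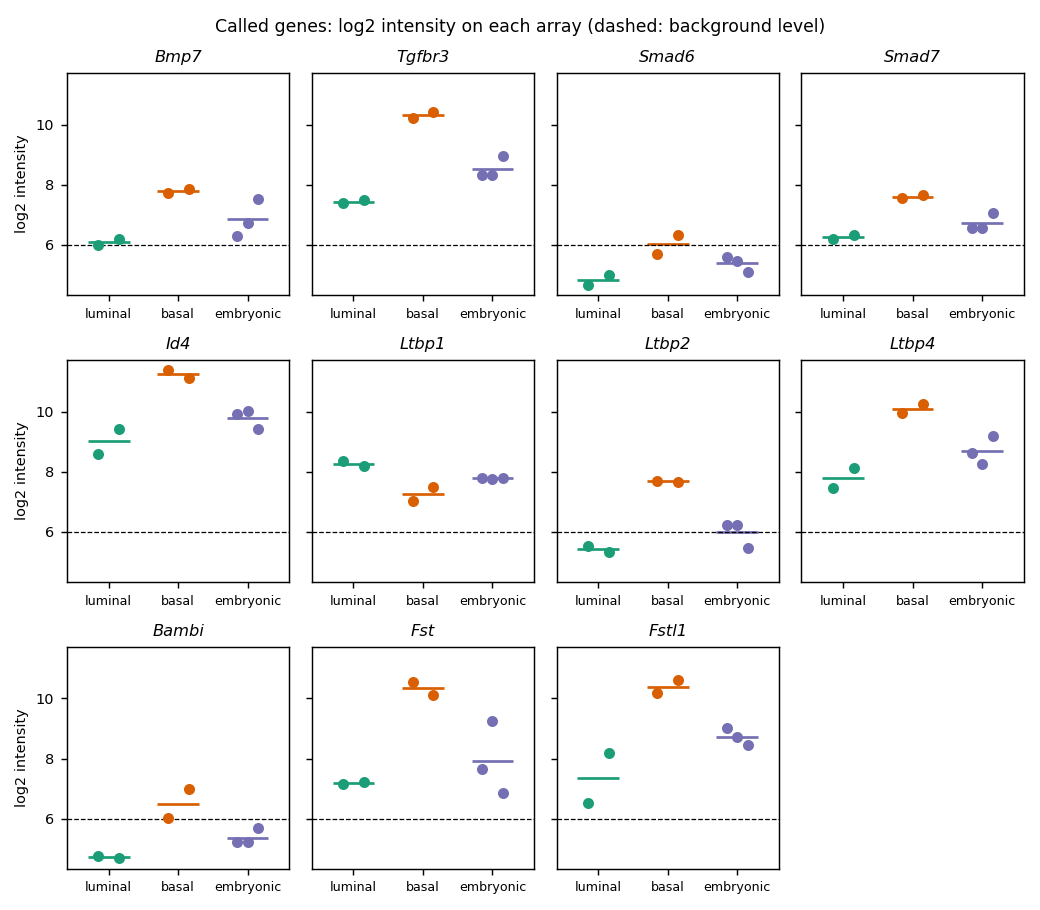
Log2 intensity of the 11 called genes on each of the 7 arrays; points are arrays, short lines group means and the dashed line the background level of 5.98. Luminal and basal points do not overlap in any panel; luminal replicates are widely spaced for Fstl1, at 6.54 and 8.20, and embryonic points lie between the adult lineages on average.

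Probe sets of the same gene offered a check within the table, since they target different stretches of a transcript but share arrays and RNA. Of the called genes, Fst, Fstl1, Tgfbr3, Id4 and Bmp7 had further probe sets above background in at least 1 lineage, and each gave a difference of the same sign. The widest spread was that of Id4, from -3.71 to -2.24. For Ltbp4, Ltbp2, Bambi, Smad7 and Smad6 a single probe set stood for the gene.

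**Figure D3:**
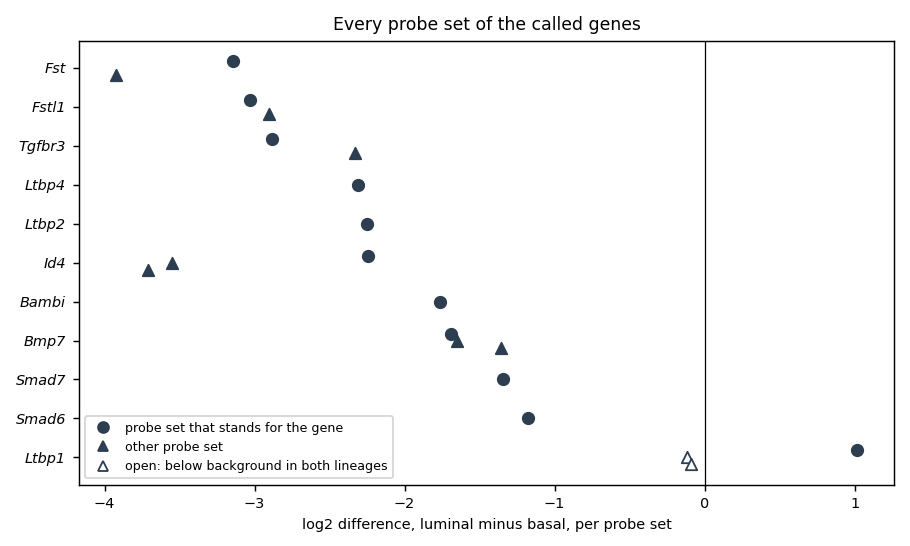
Log2 difference, luminal minus basal, for every probe set of the 11 called genes; circles stand for the gene, triangles are its other probe sets and open symbols were below background in both lineages. The filled symbols of a gene lie on 1 side of 0, and the open triangles of Ltbp1 sit at -0.12 and -0.09 beside its circle at 1.02.

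The calls rested on all 4 adult arrays. Without luminal replicate 1 none of the 11 was called in limma, although 10 still differed at least 2-fold, and all 11 had an unadjusted p under 0.05. Without luminal replicate 2 the called genes were Fstl1, Id4 and Tgfbr3, without basal replicate 1 Bambi and Tgfbr3, and without basal replicate 2 Ltbp1 and Tgfbr3. The lone array of a lineage was here taken to have the spread of the remaining groups, and calls over all genes in these fits are not given beside them. The direction of all 11 was the same in each. The 4 adult arrays alone gave the same 11 calls, 10 higher in basal cells.

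**Figure D4:**
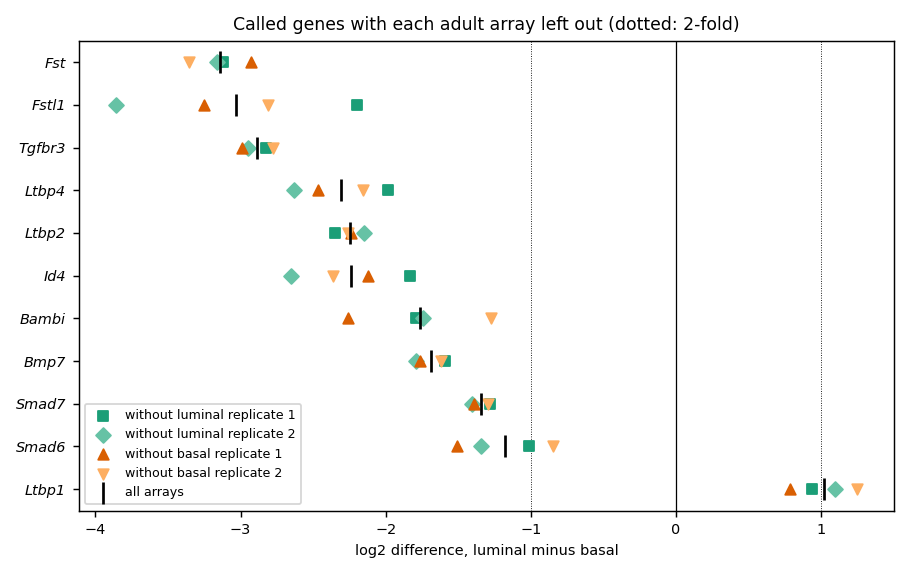
Log2 difference, luminal minus basal, of the 11 called genes with each adult array left out in turn; symbols are the left-out array, black bars the value with all arrays and dotted lines 2-fold. No symbol crosses 0, Fstl1 moves from -3.86 to -2.20, and Tgfbr3 lies between -2.99 and -2.78.

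Genes that work with these members were read from lists of other ligands, antagonists, co-receptors, latency and activation genes, Smad regulators and common targets. Of 70 measured, 7 were called (5.49% over all genes), 6 higher in basal and 1 in luminal cells. The median difference of the 70 was -0.20, against 0.02 over all genes. Of 13 other antagonists 2 were called, both higher in basal cells. Fstl3, a follistatin relative that binds activins, read 8.05 and 7.77 in luminal and 9.46 and 9.89 in basal cells (-1.76 ± 0.39, limma adjusted p = 0.0383). Nbl1, a secreted BMP antagonist, read 6.39 and 6.38 against 7.42 and 7.53 (-1.09 ± 0.26, limma adjusted p = 0.0434). Chrdl1 and Chrdl2 were below background on every adult array.

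Of 14 Smad regulators, Tgif2, a repressor that binds Smads, was called at 7.20 and 7.32 in luminal and 8.18 and 8.81 in basal cells (-1.23 ± 0.22, limma adjusted p = 0.0248). The ubiquitin ligase genes Smurf1 (0.34) and Smurf2 (-0.04) did not pass. Of 10 latency and activation genes, Bgn was called. It encodes biglycan, a matrix proteoglycan that binds TGF-beta, and read 7.25 and 8.60 on the luminal and 10.53 and 10.81 on the basal arrays (-2.75 ± 0.54, limma adjusted p = 0.0288). Bgn differed by 1.35 between the luminal replicates, and its difference was -2.07 without luminal replicate 1 and -3.42 without luminal replicate 2, with its call lost in both (limma adjusted p = 0.149 and 0.0690, range 0.0115 to 0.149 over its alternatives). Itgav (0.27) and Nrros (-0.16) did not pass. Itgb6, an integrin subunit gene, was not called but lay on the luminal side. It read 7.48 and 6.53 on the luminal arrays and 5.81 and 5.80, below background, on the basal arrays. The measured difference was 1.20 ± 0.43 (limma adjusted p = 0.114).

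Common targets moved in both directions. Of 10 TGF-beta targets 2 were called, both higher in basal cells. Snai2, a transcription factor gene of basal and mesenchymal cells, read 4.93 and 5.12 in luminal and 6.95 and 6.89 in basal cells. It was at least 1.91-fold higher in basal cells (measured difference -1.89 ± 0.24, limma adjusted p = 0.0122). Ccn2, which encodes connective tissue growth factor, read 4.49 and 4.56 in luminal and 5.98 and 6.64 in basal cells, at least 1.25-fold higher in basal cells (1.56-fold at the lower background level, measured difference -1.78 ± 0.32, limma adjusted p = 0.0242). Cdkn2b (0.49, below background) and Cdkn1a (-0.29), genes of cell cycle inhibitors, were not called. Col1a1 stood in both this list and the fibroblast list, and Itgb6 in both this list and the latency list. Dcn was in the latency and fibroblast lists, and Eng in the co-receptor and endothelial lists. Of 7 BMP targets, the homeobox gene Msx2 was the 1 called, higher in luminal cells at 6.69 and 6.66 against 5.07 and 5.56 (at least 1.62-fold, measured difference 1.36 ± 0.22, limma adjusted p = 0.0192). With the mean of its probe sets the Msx2 difference was 0.74, under 2-fold. Msx1 (-0.36) and Hey1 (-0.48) did not pass. No gene was called among 11 other ligands or 6 co-receptors in limma. Lefty2, Rgma and Eng had an unadjusted p under 0.05. Gdf10 had a limma adjusted p of 0.0349 but differed under 2-fold (-0.55). The ligands were below background on every adult array.

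In the embryonic columns most members lay close to the mean of the adult arrays, as most of the table does, but several called members lay below it. The embryonic mean fell between the luminal and basal means for 41 of 51 members and for all 11 called ones, and it differed from the mean of the 4 adult arrays by -0.83 (Fst) to 0.05. Over all genes the SD of that difference was 0.10. Besides Fst, the called members furthest from 0 were Ltbp2 (-0.58), Tgfbr3 (-0.35) and Id4 (-0.34). Bmp7 (-0.08), Smad6 (-0.04) and Ltbp1 (0.02, the only positive one) lay closest to 0. The share of all genes with an embryonic mean between the lineages is not given here. Embryonic replicates 1 and 2 held the same value for 12 of 51 members and for 36.1% of all genes. Tgfbr3, Smad7, Ltbp2 and Bambi were the called members so tied, and their standard errors drew on the tied values. Embryonic and adult levels were therefore not tested against each other, and their order describes the table alone. Among the called members, Tgfbr3 read 8.32, 8.32 and 8.96, Id4 9.93, 10.04 and 9.42, and Bmp7 6.31, 6.74 and 7.54. Embryonic replicates were most unlike each other for Fst (SD 1.22, n = 3), whose replicate 2 stood above the others.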

How the data were processed

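RNA from sorted cells was labelled with biotin and measured on Affymetrix arrays, per the labels. The authors deposited 1 linear intensity per probe set and array, made with RMA and affy per the submitters' processing notes. No source used here gives versions, any adjustment between embryonic and adult arrays, or the preparation of the adult cells, whose protocol text is that of the embryos. Out of 45141 rows, 4 had no values and 104 were control probe sets, and these were dropped. Of the other 45033 probe sets, GEO's platform annotation gave 1 symbol for 28895, several for 551 and none for 15587. The probe set with the highest mean and a single symbol stood for each of 17096 genes.

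Log2 intensities entered limma 3.58.1 (R 4.3.3) with a mean per group (residual df 4, prior df 2.29), and no gene was filtered out. Of the 104 genes behind the background level 2 were called, so it is approximate. Members and lists were chosen with earlier results of these data known. The rule for naming took every called member, members with an adjusted p under 0.05 but under 2-fold, then per role up to 2 that did not pass, by mean adult level. From each other list it took up to 4 called genes per direction and 2 not called. Values of further members, Gdf10, Itgb6, Lefty2 and the single luminal and stromal markers were chosen after they were seen. Alternatives changed the probe set rule, the treatment of dim genes, quantile normalization, the prior, array weights, the fold minimum, the arrays fitted and a replicate block, and left out each replicate. The fit was tested on simulated data. Promoter windows came from RefSeq (GRCm38.p6) for 38 of 51 members. Plots used Python 3.11.15 with matplotlib 3.10.9.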

Additional observations from a re-analysis of the deposited data

How the results depend on the processing

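Direction did not change for any of the 11 called members under the alternatives run. Of the uncalled members named by the rule, Bmp8b, Grem1, Smad3 and Tgfb2 changed sign in at least 1. Chrd, at 0 in the main fit, fell on both sides across them. The signs of members that the rule did not name were not followed. The number of called members, 11, ranged from 0 to 11 when each replicate was left out, with 0 and 3 without luminal replicates 1 and 2, 2 and 2 without basal replicates 1 and 2, and 9, 9 and 11 without embryonic replicates 1 to 3. It was 8 with array weights, 9 among genes above background by their mean, 10 with quantile normalization, and 14 with no fold minimum. Bambi and Smad6 had a mean below background and were not tested among the genes above it. The other called members kept their calls there. These member counts are given here without the count over all genes at each setting, so they do not show a change particular to the members. The number of other pathway genes called, 7, ranged from 0 to 7 with a replicate left out; it was 12 with no fold minimum and 4 among genes above background by their mean. Ccn2, Snai2 and Msx2 had a mean below background and were likewise not tested among the genes above it. The replicate numbers of the adult lineages were not shown to pair samples (correlation of replicate differences across genes 0.08). With the replicate block the 11 calls were the same 11, the pathway count was 7, and the count over all genes was 1199 against 939. With array weights Bmp7, Fst and Smad6 lost their calls, and with embryonic replicates 1 and 2 averaged Smad6 did (limma adjusted p = 0.0529, range 0.0191 to 0.202 over its alternatives). The causes were not tested. With 2 arrays per lineage and 16 of 51 members not above background in either adult lineage, small differences among the members could not be resolved.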
